A study of Mus musculus with 42 samples.

Results

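The 7 genes described here encode the Nodal branch of activin signalling in mouse cells: the ligands Nodal and Gdf3, the co-receptor Tdgf1 (Cripto), the receptor Acvr2b, the antagonists Lefty1 and Lefty2, and the nuclear partner Foxh1. They were taken by gene name from both deposited count tables, 7 of 48321 names in each, and all 7 passed the filter on low counts in both tables. The study followed mouse embryonic fibroblasts (MEF) on the way to induced pluripotent stem cells (iPSC) by RNA-seq in 42 libraries, 14 groups of 3, sequenced in 2 batches of 21. Cells were sorted for mCherry, which reports Tet1, with or without green fluorescent protein (GFP), which reports Pou5f1, the gene of the pluripotency factor OCT4. Genes were compared only within a batch.

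Batch 1 holds 3 lines labelled naivex2, from a cross of B6; 129S4-Tg(Tet1-mCherry)B37Koh with B6;CBA-Tg(Pou5f1-EGFP)2Mnn/J, of genotype Tg(mCherry)/wt; Tg(GFP)/wt, with both reporters named as transgenes. Its groups are parental MEF at day 0, mCherry+/GFP- cells at days 10, 12 and 14 (all given as stage III), mCherry+/GFP+ cells at day 12 (stage IV) and day 14 (stage V), and iPSC at passage 6-7. Batch 2 holds 3 lines labelled totalx2, from a cross of B6- Tet1tm1.1Koh with B6;129S4-Pou5f1tm2Jae/J, whose allele names place both reporters at the genes themselves, with the genotype written as for naivex2. Its groups are mCherry+/GFP- cells at days 8, 10 and 12 (stage I) and mCherry+/GFP+ cells at day 10 (stage II) and day 12 (stage III). Batch 2 also holds 3 wild-type (wt/wt;GFP/wt) and 3 TET1 KO (mut/mut;GFP/wt) iPSC clones at passage 6-7, from a cross of B6- Tet1tm1Koh with B6;CBA-Tg(Pou5f1-EGFP)2Mnn/J, so that wild-type clones differ in strain from the totalx2 cells. All cells were labelled male, each replicate of a sorted group came from 1 line, and each of these iPSC replicates is 1 clone. iPSC were grown on feeders, which were then depleted. How the reprogramming factors were delivered is not given in the sources used here. For totalx2 day 12 mCherry+/GFP- replicate 2 the mCherry gate comes from the source name alone, since the title does not give it.

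Nodal is a secreted factor of the TGF-beta family that binds type I and type II activin receptors, and it needs a co-receptor such as Cripto to do so. The receptors phosphorylate SMAD2 and SMAD3, which bind DNA together with partners such as FOXH1. In the early embryo the pathway patterns the axes and maintains the epiblast. Nodal, Lefty1 and Lefty2 are themselves known targets of the pathway, and the Lefty proteins are feedback inhibitors that bind Nodal or its co-receptor. Tdgf1 and Gdf3 are commonly used as markers of pluripotent cells.

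Libraries held 6540256 to 20783265 counts over 18838 to 21666 detected genes. The share of counts on mitochondrial genes was 1.753 to 12.18%, and 2 libraries were above 8%: naivex2 day 10 GFP- replicate 1 (8.99%) and wild-type iPSC replicate 1 (12.2%), and the second stands apart for several of the 7 genes. The pluripotent marker list (Pou5f1, which the GFP gate reports, Nanog, Sall4, Esrrb, Zfp42, Dppa4, Utf1 and Epcam) summed to 2.19 to 3.46 counts per 1000000 (CPM) in MEF and to 2916 to 3695 CPM in the iPSC groups of batch 2. These are bulk libraries, in which fewer cells of a type and less RNA per cell cannot be told apart.

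On mm10, the build named for both tables, Nodal lies at chr10:61417972-61425338 (+ strand), Gdf3 at chr6:122605403-122610087 (-), Tdgf1 at chr9:110939603-110946158 (-), Acvr2b at chr9:119402444-119433501 (+) and Foxh1 at chr15:76668284-76669948 (-). Lefty2 (chr1:180893108-180899103) and Lefty1 (chr1:180935022-180938400) lie in a row on the + strand, 35918 bases apart. Counts were taken over the whole gene span, introns included, and no member overlaps another counted gene on either strand.

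The Lefty pair is shown because the 2 genes gave different answers below, and their reads have to be told apart. Their coding sequences, 1107 bases each, are identical at 1017 positions (91.9%), and the longest shared run is 140 bases. Of all 50-base windows, 17.89% of those in the Lefty1 transcript and 11.59% of those in the Lefty2 transcript also occur in the other transcript. How reads that fit both genes were handled is not given in the sources used here, so values of this pair carry that uncertainty. The stretch below was chosen as the 150 bases of the aligned coding sequences with the most differences, so it shows the pair where it is least alike. It covers coding bases 63 to 212 of Lefty1-201 and Lefty2-201 (GENCODE M21, GRCm38, chr1:180935172-180935321 and chr1:180893246-180893395). It has 40 differences in 150 bases, marked by capitals.
Lefty1: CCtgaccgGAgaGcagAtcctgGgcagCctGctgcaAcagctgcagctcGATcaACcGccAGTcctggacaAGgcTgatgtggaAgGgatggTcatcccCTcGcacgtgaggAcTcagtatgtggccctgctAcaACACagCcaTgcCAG
Lefty2: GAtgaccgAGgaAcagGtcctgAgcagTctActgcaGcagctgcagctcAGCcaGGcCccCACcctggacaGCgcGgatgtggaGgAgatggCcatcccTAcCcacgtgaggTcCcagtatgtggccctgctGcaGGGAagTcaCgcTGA

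Promoter sequence from RefSeq (GRCm38.p6) was matched for 3 of the 7 genes, Nodal, Tdgf1 and Acvr2b. The 250 bases before the start of Tdgf1 (chr9:110946159-110946408, - strand) are shown because Tdgf1 had one of the largest differences between GFP+ and GFP- cells in totalx2. Capitals mark matches to 3 words searched on both strands: TGTNNATT (FOXH1), GTCTG (SMAD) and GGGNGTGG (KLF family).
Tdgf1: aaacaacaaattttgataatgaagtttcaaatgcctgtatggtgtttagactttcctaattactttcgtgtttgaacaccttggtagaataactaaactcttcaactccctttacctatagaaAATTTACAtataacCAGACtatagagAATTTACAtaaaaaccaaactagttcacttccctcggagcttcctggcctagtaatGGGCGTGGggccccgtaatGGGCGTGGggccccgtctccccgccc
The FOXH1 word occurs here 2 times on the opposite strand, as AATTTACA, 127 to 120 and 101 to 94 bases before the start. The SMAD word lies between them, 113 to 109 bases before the start, and the KLF word follows 2 times, with no overlap between any of these. Of 32851 mouse promoter windows of this length 10.9% hold the FOXH1 word, 42.2% the SMAD word and 15.9% the KLF word. The Nodal window holds 0 matches to the 3 words and the Acvr2b window 1, to the SMAD word. N stands for any base, so the FOXH1 word is loose, and its 2 matches in Tdgf1 are not shown to be FOXH1 sites. A match is a match of letters, and no binding was measured.

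All 7 genes were higher in mCherry+/GFP- naivex2 cells at day 10 than in the MEF they came from (edgeR quasi-likelihood test, called at an adjusted p under 0.05; adjusted p from 2.6e-19 for Tdgf1 to 2.5e-08 for Lefty2). Of all genes tested 76.4% were called in that comparison and 38.8% were called higher. Lefty2 and Foxh1 had 0 counts in all 3 MEF libraries. Set against a floor of 3 counts per library (0.202 CPM), day 10 levels of 33.1 ± 8.77 CPM (SD, n = 3) for Lefty2 and 37.6 ± 6.96 CPM for Foxh1 were at least 164-fold and at least 186-fold higher. Nodal had 2 counts over the 3 MEF libraries and Gdf3 had 3, giving ratios of pooled rates of 791 (95% exact interval 219 to 6537) and 633 (216 to 3074), which cover counting error only.
The other members had more counts in MEF, although Tdgf1 had only 12 over the 3 libraries. Its ratio of pooled rates was 1606 (95% exact interval 919 to 3109), again covering counting error only. Tdgf1 went from 0.294 ± 0.27 to 422 ± 41.9 CPM (log2 fold change 10.60 ± 0.23, standard error), Lefty1 from 0.700 ± 0.226 to 15.9 ± 4.21 CPM (4.53 ± 0.40) and Acvr2b from 2.73 ± 0.638 to 28.2 ± 8.92 CPM (3.37 ± 0.23). Acvr2b thus had the smallest of these differences, and the lowest day 10 library of each of the 7 genes lay above every MEF library. How many of all genes tested were separated in this way was not counted. The fibroblast list (Col1a1, Col1a2, Col3a1, Thy1, Pdgfrb, Twist2, Prrx1 and Lum) summed to 14863 to 16062 CPM in MEF and to 703 to 1179 CPM at day 10. Its part in the result was not tested.

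**Figure D1:**
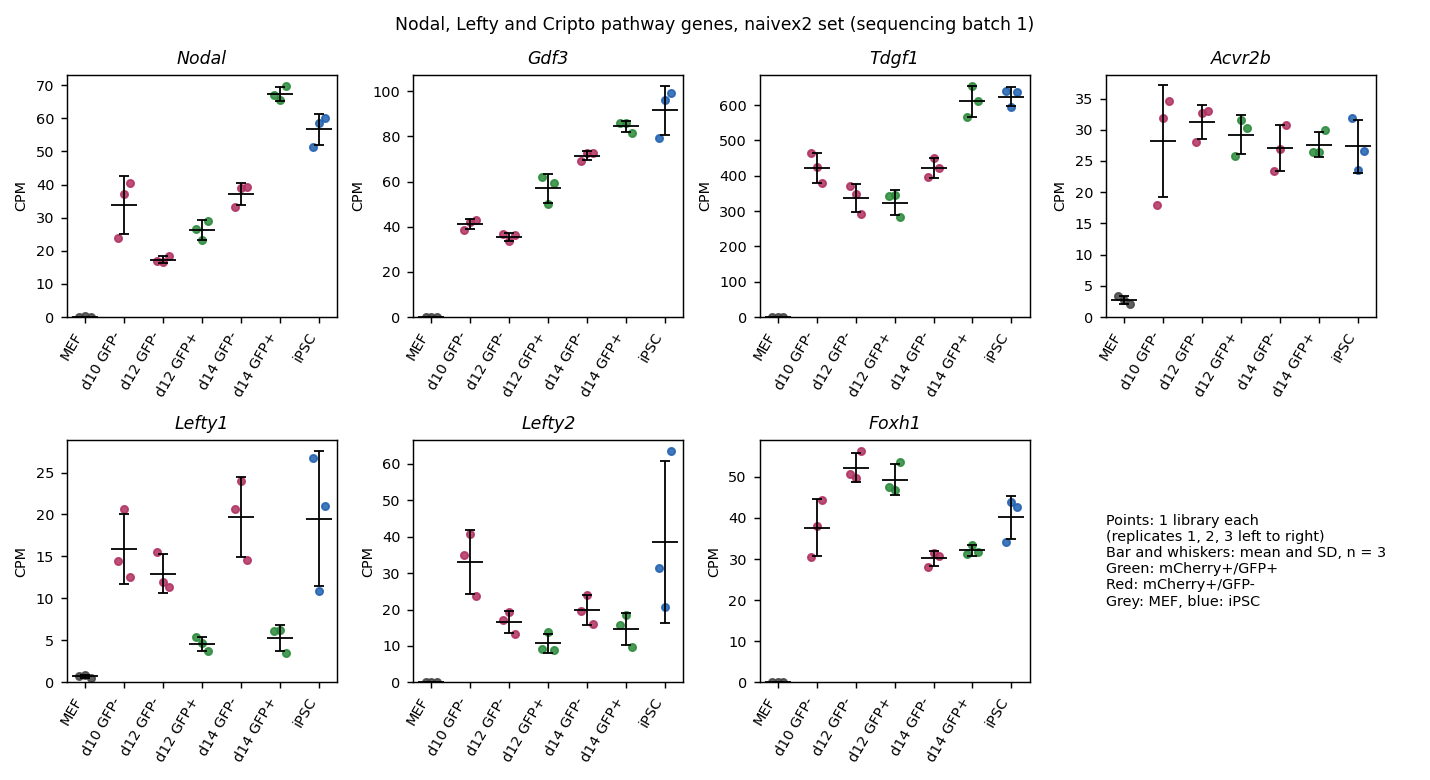
Level of each of the 7 genes (CPM, linear axis from 0) in the 21 libraries of the naivex2 set, 1 point per library, with the mean and SD of 3 replicates per group. MEF lie at or near 0 for all genes but Acvr2b (2.73 CPM), and the GFP+ groups lie lowest among the later groups for Lefty1 but highest or among the highest at day 14 for Nodal, Gdf3 and Tdgf1.

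GFP+ cells were set against GFP- cells of the same day and lines, which asks how the pathway differs once the Pou5f1 reporter is on. In naivex2 Nodal was higher and Lefty1 lower in GFP+ cells on both days. At day 12, 2 members were called higher (Nodal and Gdf3) and 1 lower, where 16.6% of all genes tested were called (9.93% higher and 6.69% lower). At day 14 again 2 were higher (Nodal and Tdgf1) and 1 lower, where 31.3% were called (14.4% higher and 16.9% lower). In totalx2 the members were called in 1 direction only: 5 higher at day 10 (22.4% of all genes called, 1975 of 15197 higher) and 7 higher at day 12 (61.6% called, 31.2% higher). At totalx2 day 12 the members' median log2 difference was 1.65 and that of all genes tested was 0.05.
The GFP+ and GFP- groups also differ in markers of other cells. The fibroblast list summed to 7242 to 10343 CPM in totalx2 day 12 GFP- cells and to 1811 to 2237 CPM in GFP+ cells, and all 8 of its genes were called lower. At totalx2 day 10 the ranges overlapped (2166 to 7017 in GFP- and 3847 to 10385 CPM in GFP+ cells), while the leukocyte list (Ptprc, Csf1r, Cd68, Tyrobp and Lyz2) summed to 10.1 to 23.7 and 49.1 to 148 CPM, with all 5 genes called higher in GFP+ cells. In naivex2 the fibroblast sums were 761 to 1228 (GFP-) and 452 to 932 CPM (GFP+) at day 12, and 2920 to 4838 and 1443 to 2425 CPM at day 14. The trophectoderm list (Cdx2, Krt7, Gata2, Gata3, Hand1 and Elf5) summed to 50.9 to 63.8 CPM in naivex2 day 14 GFP- cells and to 15.7 to 17.3 CPM in GFP+ cells. The pluripotent list, which holds the gated gene Pou5f1, summed to 771 to 959 CPM in totalx2 day 12 GFP- cells and to 2871 to 2957 CPM in GFP+ cells, but to 2931 to 3059 and 3517 to 3655 CPM in naivex2 at day 14. The part of these markers in the members' differences was not tested.

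**Figure D2:**
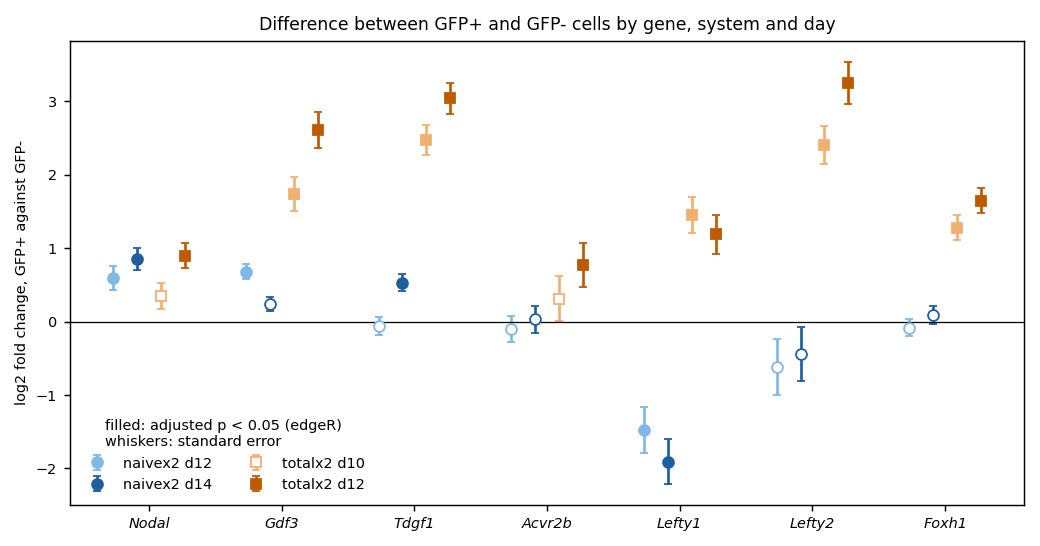
Log2 fold change of GFP+ against GFP- cells (y axis, edgeR estimate with its standard error) for each of the 7 genes (x axis) in naivex2 at days 12 and 14 (circles) and totalx2 at days 10 and 12 (squares), with filled symbols for adjusted p under 0.05. Lefty1 lies below 0 in naivex2 (-1.48 and -1.91) and above 0 in totalx2 (1.46 and 1.19), and the totalx2 estimates reach 3.04 for Tdgf1 and 3.25 for Lefty2.

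Nodal was higher in GFP+ naivex2 cells on both days. At day 12 the 3 GFP- libraries held 16.8, 16.8 and 18.6 CPM and the 3 GFP+ libraries 26.6, 23.3 and 29.1 CPM. At day 14 they held 33.4, 39.1 and 39.3 CPM against 67.2, 65.5 and 69.8 CPM. No library of the GFP+ cells fell within the GFP- range on either day. The log2 fold change was 0.59 ± 0.16 at day 12 (edgeR, adjusted p = 0.0128) and 0.86 ± 0.15 at day 14 (adjusted p = 0.000162), higher in 3 of 3 lines each time. The day 12 call was lost without GFP- replicate 1 (adjusted p = 0.055), GFP- replicate 2 (0.0511) or GFP+ replicate 3 (0.0665).
Over time Nodal rose in GFP+ naivex2 cells from 26.3 ± 2.91 CPM at day 12 to 67.5 ± 2.16 CPM at day 14 (log2 fold change 1.36 ± 0.15, adjusted p = 1.5e-06), the largest of the members' differences in that comparison, in which 30.5% of all genes were called. iPSC lay at 56.7 ± 4.68 CPM, below every day 14 GFP+ library, with a log2 fold change of -0.25 ± 0.15 that was not called (adjusted p = 0.173, and 0.0397 with the compared groups fitted alone). In order, Nodal was lowest in MEF, then in day 12 GFP- (17.4 ± 1.03), day 12 GFP+, day 10 (33.9 ± 8.72), day 14 GFP- (37.2 ± 3.36), iPSC and day 14 GFP+ cells. Day 10 overlapped its neighbours on both sides in this order, and the other neighbours did not overlap.

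In totalx2 Nodal was called higher in GFP+ cells at day 12 and not at day 10. At day 10 it was at 35.3, 31.5 and 28.6 CPM in GFP- and 44.2, 42.7 and 34.3 CPM in GFP+ libraries, ranges that overlap (log2 fold change 0.35 ± 0.17, adjusted p = 0.168). At day 12 GFP- libraries held 24.7, 20.9 and 18.5 CPM and GFP+ libraries 40.0, 40.4 and 40.1 CPM, without overlap (0.90 ± 0.18, adjusted p = 0.000199). GFP+ cells held 40.4 ± 5.35 CPM at day 10 and 40.2 ± 0.222 CPM at day 12, while the mean of GFP- cells was lower at day 12. The change of the GFP effect between these days was 0.55 ± 0.25 on the log2 scale. It was not called (adjusted p = 0.105, and 0.0191 with the compared groups fitted alone).
GFP- cells were at 13.8 ± 3.32 CPM at day 8, 31.8 ± 3.39 CPM at day 10 and 21.4 ± 3.09 CPM at day 12. From day 8 to day 12 Nodal rose by a log2 fold change of 0.64 ± 0.18 (adjusted p = 0.012; 31.6% of all genes called), lost without day 12 GFP- replicate 1 (adjusted p = 0.0723) or day 8 replicate 2 (0.0623). The fibroblast sums were 11103 to 18003 CPM at day 8, above the 7242 to 10343 CPM at day 12.

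Wild-type iPSC clones held 39.4, 63.7 and 65.5 CPM of Nodal, and the low value is that of replicate 1, the library with the highest mitochondrial share. Against totalx2 day 12 GFP+ cells Nodal was higher by a log2 fold change of 0.49 ± 0.17 (adjusted p = 0.0207; 51.1% of all genes called), with overlapping ranges. The value was 0.70 (adjusted p = 0.000315) without replicate 1. Without wild-type replicate 2 or 3 it was not called (adjusted p = 0.0735 and 0.095), nor without day 12 GFP+ replicate 1 or 2 (0.0504 and 0.0513). The call was also lost with unscaled library totals (0.38, adjusted p = 0.129) and with the compared groups fitted alone (0.0985). The lines and strains of this comparison differ, so the stage and the strain cannot be told apart.

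Gdf3, a relative of Nodal that is expressed in pluripotent cells and acts as a ligand or a modulator of this pathway, was called higher in GFP+ cells of totalx2 on both days. At totalx2 day 10 GFP- libraries held 18.2, 20.7 and 11.4 CPM and GFP+ libraries 52.7, 65.4 and 49.95 CPM (log2 fold change 1.74 ± 0.24, adjusted p = 2.1e-05). At day 12 they held 11.6, 11.6 and 6.18 against 60.6, 67.5 and 55.0 CPM (2.61 ± 0.25, adjusted p = 4.8e-08). On both days the lowest GFP+ library was more than 2-fold above the highest GFP- library.
In GFP- totalx2 cells Gdf3 fell between day 8 (18.6 ± 5.06 CPM) and day 12 (9.82 ± 3.15 CPM), with a log2 fold change of -0.91 ± 0.25 (adjusted p = 0.01). This was opposite in direction to Nodal in the same libraries. The call was lost without day 8 replicate 1 (adjusted p = 0.0992) or day 12 GFP- replicate 3 (0.0683), and with no low-count filter (0.0562). GFP+ cells at day 10 and day 12 overlapped (56.0 ± 8.26 and 61.0 ± 6.27 CPM), and so did wild-type iPSC (82.7 ± 19.9 CPM). The log2 fold change of the latter against day 12 GFP+ cells was 0.45 ± 0.22 (adjusted p = 0.0974), and 0.64 (0.0252) without replicate 1.

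In naivex2 Gdf3 was already at 41.3 ± 2.28 CPM at day 10. At day 12 it was at 36.7, 33.6 and 36.2 CPM in GFP- and 61.8, 49.9 and 59.2 CPM in GFP+ libraries, without overlap (log2 fold change 0.68 ± 0.10, adjusted p = 6.4e-05). At day 14 the libraries held 69.2, 72.7 and 72.7 against 85.8, 85.8 and 81.6 CPM, again without overlap, but the log2 fold change of 0.24 ± 0.10 was not called (adjusted p = 0.0685, 0.0333 with RLE size factors, 0.0184 with DESeq2 and 0.00186 with the compared groups fitted alone).
Gdf3 rose with time in both naivex2 gates. In GFP- cells it rose from day 10 to day 14 (71.5 ± 2.05 CPM) by a log2 fold change of 0.79 ± 0.10 (edgeR, adjusted p = 3.9e-06, with 36.8% of all genes called). It also rose in GFP+ cells from 57.0 ± 6.28 CPM at day 12 to 84.4 ± 2.43 CPM at day 14 (0.57 ± 0.10, adjusted p = 0.000193), and iPSC, at 91.5 ± 10.8 CPM, overlapped the latter. The difference of the GFP effects between days was -0.44 ± 0.14 on the log2 scale and was not called (adjusted p = 0.139).

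Tdgf1 encodes Cripto, the membrane-anchored co-receptor that lets Nodal engage its receptors. Names of 2 pseudogene copies, Tdgf1-ps1 and Tdgf1-ps2, are in the tables, so reads that fit both may have been split. In totalx2 Tdgf1 separated the gates widely. GFP- libraries at day 10 held 69.5, 84.6 and 48.9 CPM and GFP+ libraries 374, 403 and 348 CPM (log2 fold change 2.47 ± 0.21, adjusted p = 4.3e-08). At day 12 they held 59.6, 53.2 and 38.4 against 368, 463 and 421 CPM (3.04 ± 0.21, adjusted p = 8.1e-10).
In naivex2 the picture was another. GFP- cells at day 10 were at 422 ± 41.9 CPM, a level that in totalx2 was reached by GFP+ cells, although levels of different batches were not tested against each other. At day 12 the naivex2 gates overlapped, with 371, 347 and 292 CPM in GFP- and 343, 345 and 282 CPM in GFP+ libraries (log2 fold change -0.06 ± 0.12, adjusted p = 0.81). At day 14 they did not, with 395, 449 and 422 against 567, 653 and 612 CPM (0.53 ± 0.12, adjusted p = 0.00173). The difference between the 2 days was 0.59 ± 0.17 on the log2 scale, not called by edgeR (adjusted p = 0.0931) and called by DESeq2 (0.00405).

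GFP+ naivex2 cells rose in Tdgf1 from 323 ± 35.7 CPM at day 12 to 611 ± 43.4 CPM at day 14 (log2 fold change 0.92 ± 0.12, adjusted p = 9.3e-06), and iPSC overlapped the latter at 624 ± 26.2 CPM. In GFP- totalx2 cells it rose from 18.9 ± 4.66 CPM at day 8 to 50.4 ± 10.8 CPM at day 12 (1.42 ± 0.21, adjusted p = 6.7e-05). GFP+ totalx2 cells overlapped between days (375 ± 27.6 and 417 ± 47.7 CPM). Wild-type iPSC clones, at 911, 608 and 608 CPM, were above day 12 GFP+ cells (0.76 ± 0.19, adjusted p = 0.00293), and still so without replicate 1, the library at 911 CPM (0.56, adjusted p = 0.027).

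Acvr2b encodes a type II activin receptor and varied least after the fibroblast stage. In the 6 later naivex2 groups its means lay between 27.05 ± 3.72 CPM (day 14 GFP-) and 31.2 ± 2.79 CPM (day 12 GFP-), and every group overlapped its neighbours in the order. The log2 fold change of GFP+ against GFP- cells was -0.10 ± 0.18 at day 12 (adjusted p = 0.784) and 0.03 ± 0.18 at day 14 (0.926).
In totalx2 Acvr2b was at 10.4 ± 1.12 CPM at day 8 and 18.4 ± 6.32 CPM in day 10 GFP- cells. At day 12 GFP- libraries held 21.5, 17.5 and 14.7 CPM and GFP+ libraries 32.6, 32.9 and 27.5 CPM, without overlap (log2 fold change 0.78 ± 0.30, adjusted p = 0.0308). This call was lost without GFP+ replicate 1 or 2 or GFP- replicate 2 or 3 (adjusted p = 0.0929, 0.0729, 0.092 and 0.139), with unscaled library totals (0.067) and with no low-count filter (0.128). From day 8 to day 12 in GFP- cells the log2 fold change was 0.79 ± 0.31 (adjusted p = 0.0624), and 0.77 with line as a replicate block (0.0268). It was also called by DESeq2 (0.0486) and with the compared groups fitted alone (0.0049). Among wild-type iPSC, replicate 1 held 7.99 CPM and the others 27.01 and 25.1 CPM. Their log2 fold change against totalx2 day 12 GFP+ cells was -0.59 (adjusted p = 0.102), or -0.82 (0.0483) without replicate 2 and -0.23 (0.396) without replicate 1.

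**Figure D3:**
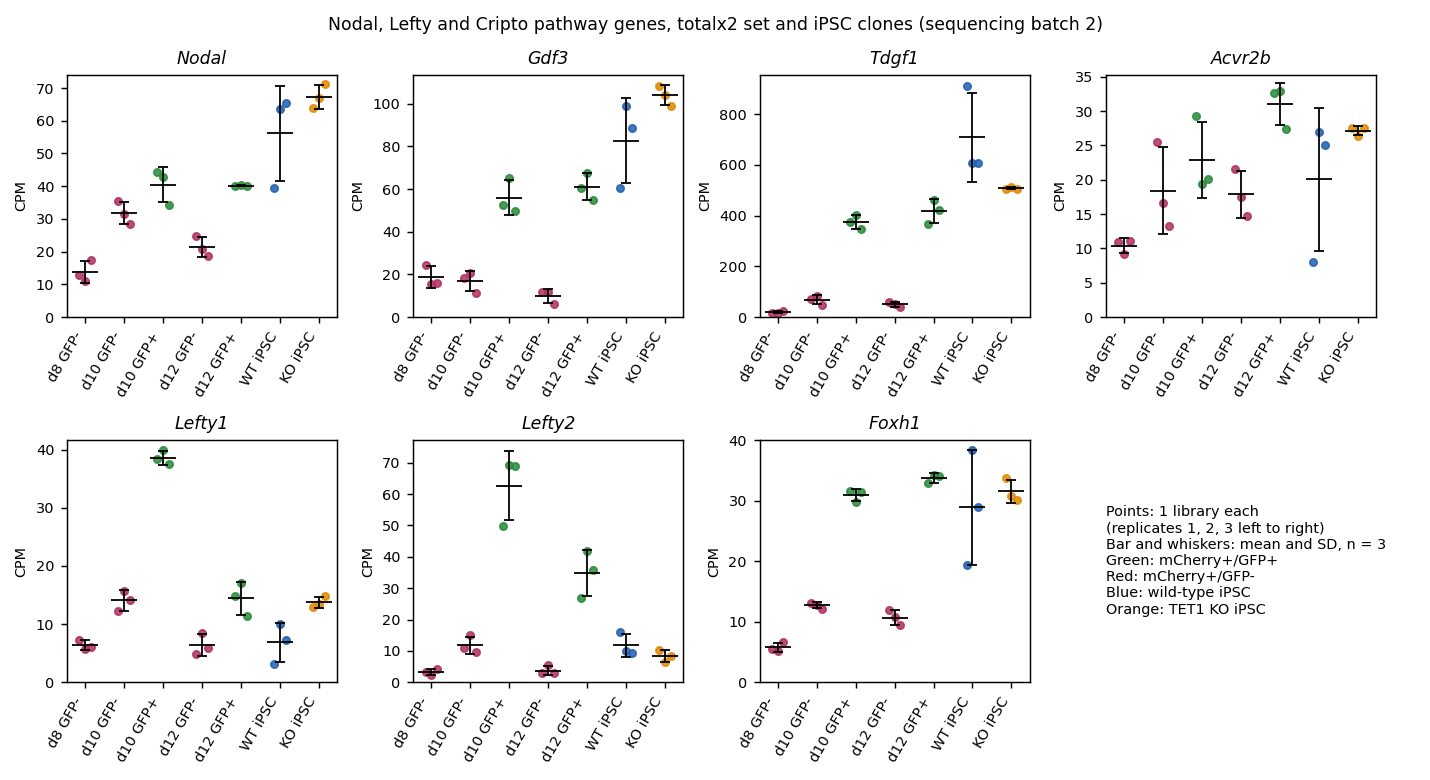
Level of each of the 7 genes (CPM, linear axis from 0) in the 21 libraries of batch 2, 1 point per library, with the mean and SD of 3 replicates per group. GFP+ groups lie above GFP- groups for Gdf3, Tdgf1, Lefty2 and Foxh1 on both days, Lefty1 peaks in day 10 GFP+ cells (38.6 CPM), and wild-type iPSC replicate 1 lies apart for Nodal, Gdf3, Tdgf1 and Acvr2b.

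Lefty1, the antagonist gene that marks the left-right midline in the embryo, moved in opposite directions in the 2 systems. In naivex2 it was lower in GFP+ cells. At day 12 GFP- libraries held 15.6, 12.0 and 11.4 CPM and GFP+ libraries 5.40, 4.65 and 3.77 CPM (log2 fold change -1.48 ± 0.31, adjusted p = 0.00216). At day 14 they held 20.6, 23.995 and 14.6 against 6.17, 6.23 and 3.45 CPM (-1.91 ± 0.30, adjusted p = 7.5e-05). All 3 lines moved the same way on both days and no ranges overlapped.
In totalx2 Lefty1 was higher in GFP+ cells. Day 10 GFP- libraries held 12.3, 15.7 and 14.2 CPM and GFP+ libraries 38.4, 39.9 and 37.5 CPM (log2 fold change 1.46 ± 0.24, adjusted p = 0.000179). At day 12 they held 4.82, 8.46 and 5.97 against 14.8, 17.01 and 11.5 CPM (1.19 ± 0.26, adjusted p = 0.000642). Within each of the 3 lines the day 12 difference was 0.92 to 1.58 in totalx2 and -1.56 to -1.34 in naivex2. The difference between systems was not tested, because the systems were sequenced in different batches. Their day 12 gates also differ in stage, IV against III in naivex2 and III against I in totalx2.

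Lefty2, the second antagonist gene, was not called between the naivex2 gates, although its estimate was negative in all 3 lines on both days. At day 12 GFP- libraries held 17.3, 19.2 and 13.2 CPM and GFP+ libraries 9.28, 13.8 and 9.02 CPM, ranges that overlap (log2 fold change -0.62 ± 0.38, adjusted p = 0.322, and 0.0339 when only these groups were fitted). At day 14 they held 19.7, 24.1 and 15.9 against 15.8, 18.4 and 9.81 CPM, again with overlap (-0.44 ± 0.37, adjusted p = 0.403). Within lines the difference was -0.89 to -0.47 at day 12 and -0.69 to -0.32 at day 14.
In totalx2 Lefty2 had the largest day 12 difference among the 7 genes. Day 10 GFP- libraries held 10.9, 14.9 and 9.67 CPM and GFP+ libraries 49.97, 69.1 and 69.0 CPM (log2 fold change 2.41 ± 0.26, adjusted p = 1.0e-06). At day 12 they held 2.96, 5.40 and 2.93 against 26.98, 41.8 and 35.7 CPM (3.25 ± 0.29, adjusted p = 1.7e-08). GFP+ and GFP- libraries lay apart on both days.

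Both Lefty genes fell in GFP+ totalx2 cells from day 10 to day 12, the 2 members called in that comparison, in which 25.1% of all genes were called and 12.9% were lower. Lefty1 fell from 38.6 ± 1.17 to 14.4 ± 2.80 CPM (log2 fold change -1.43 ± 0.25, adjusted p = 0.000363). Lefty2 fell from 62.7 ± 11.03 to 34.8 ± 7.46 CPM (-0.85 ± 0.24, adjusted p = 0.0143), a call lost without day 12 GFP+ replicate 1 (0.0802) or day 10 GFP+ replicate 2 (0.0664) or 3 (0.0566). The fibroblast sums of the same GFP+ cells went from 3847 to 10385 CPM at day 10 to 1811 to 2237 CPM at day 12, and the leukocyte sums from 49.1 to 148 to 39.2 to 65.2 CPM.
Wild-type iPSC lay lower still, but their lines and strain differ from those of totalx2, so stage and strain cannot be told apart here. Their Lefty1 was at 3.20, 10.0 and 7.35 CPM (log2 fold change against day 12 GFP+ cells -1.02 ± 0.26, adjusted p = 0.00291) and their Lefty2 at 16.1, 9.92 and 9.23 CPM (-1.59 ± 0.26, adjusted p = 4.6e-05). Without replicate 1 the values were -0.71 (adjusted p = 0.00538) and -1.85 (1.6e-05), and when only these groups were fitted the Lefty1 call was lost (0.0646).

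In naivex2, where the iPSC came from the same lines, both Lefty genes were higher in iPSC than in day 14 GFP+ cells. Lefty1 rose from 5.28 ± 1.59 to 19.5 ± 8.04 CPM (log2 fold change 1.88 ± 0.30, adjusted p = 4.6e-05) and Lefty2 from 14.7 ± 4.40 to 38.5 ± 22.2 CPM (1.39 ± 0.37, adjusted p = 0.00598). These and Foxh1 were the 3 members called, all higher, where 46.8% of all genes were called and 24.3% were higher. The iPSC lines varied widely: Lefty1 was at 26.7, 10.8 and 20.97 CPM and Lefty2 at 31.4, 20.8 and 63.5 CPM. Without iPSC replicate 3 the Lefty2 value was 0.81 (adjusted p = 0.0331), and when only these groups were fitted it was 1.38 (0.0503).

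The number of Lefty2 counts per Lefty1 count puts the pair side by side within each library. It was 0.955 to 1.09 in naivex2 day 14 GFP- libraries and 2.56 to 2.95 in GFP+ libraries, and 1.11 to 1.61 against 1.72 to 2.97 at day 12. In totalx2 it was 0.680 to 0.949 against 1.30 to 1.84 at day 10 and 0.491 to 0.639 against 1.82 to 3.12 at day 12. GFP+ libraries therefore had the higher ratio in both systems and on every day, without overlap. Of the single genes, Lefty1 was lower in GFP+ cells of naivex2 and both were higher in GFP+ cells of totalx2. No test was made of this ratio, which was chosen after the values were seen.

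**Figure D4:**
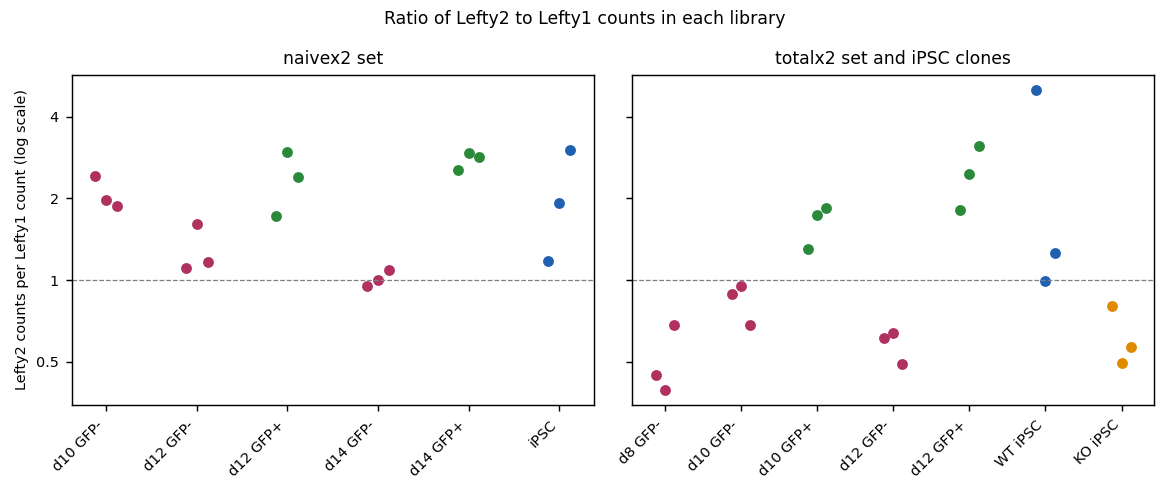
Lefty2 counts per Lefty1 count (y axis, log scale) in each library after the MEF stage, 3 points per group, for naivex2 (left) and for totalx2 with the iPSC clones (right); the dashed line marks equal counts. GFP+ libraries (green) lie above the GFP- libraries (red) of the same day, and wild-type iPSC replicate 1 reaches 5.04 while the TET1 KO clones lie at 0.494 to 0.805.

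Foxh1, the forkhead partner of SMAD2 in this pathway, was higher in GFP+ than in GFP- cells of totalx2, and not called between the gates of naivex2. At totalx2 day 10 GFP- libraries held 13.2, 12.8 and 12.2 CPM and GFP+ libraries 31.6, 29.8 and 31.5 CPM (log2 fold change 1.28 ± 0.17, adjusted p = 1.4e-05). At day 12 they held 11.9, 10.8 and 9.43 against 32.8, 34.3 and 34.2 CPM (1.65 ± 0.17, adjusted p = 1.3e-07). The replicates of Foxh1 were among the closest of the 7 genes here and no ranges overlapped. In GFP- cells Foxh1 rose from 5.77 ± 0.786 CPM at day 8 to 10.7 ± 1.23 CPM at day 12 (0.90 ± 0.19, adjusted p = 0.00125). Wild-type iPSC held 19.3, 38.3 and 29.0 CPM and were not called against day 12 GFP+ cells (-0.21, adjusted p = 0.277), except without replicate 2 (-0.45, 0.0171).
In naivex2 the gates overlapped on both days, with log2 fold changes of -0.08 ± 0.12 at day 12 (adjusted p = 0.71) and 0.09 ± 0.12 at day 14 (0.622). Its level differed more by day. It was highest at day 12 (52.2 ± 3.51 CPM in GFP- and 49.3 ± 3.79 CPM in GFP+ cells) and, after the MEF stage, lowest at day 14 (30.2 ± 1.77 and 32.1 ± 1.26 CPM). In GFP+ cells Foxh1 fell from day 12 to day 14 (-0.62 ± 0.12, adjusted p = 0.000786) while Nodal, Gdf3 and Tdgf1 rose.
Smaller changes of Foxh1 lay near the threshold. From day 10 (30.5, 38.0 and 44.4 CPM) to day 14 in GFP- cells it fell by 0.32 ± 0.12 on the log2 scale (adjusted p = 0.0444). This was not called without day 10 replicate 2 or 3 (0.0678 and 0.217) or without day 14 GFP- replicate 1, 2 or 3 (0.15, 0.0619 and 0.0795). The call was also lost with unscaled library totals (0.169), with no low-count filter (0.0633) and with the compared groups fitted alone (0.132). From day 14 GFP+ cells to iPSC (40.1 ± 5.30 CPM) it rose by 0.32 ± 0.12 (adjusted p = 0.036). That rise was not called without day 14 GFP+ replicate 1, 2 or 3 (0.0965, 0.0622 and 0.0927) or without iPSC replicate 2 or 3 (0.147 and 0.132). Nor was it called with unscaled library totals (0.0977) or with the compared groups fitted alone (0.0507).

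Whether the GFP effect changed between days was tested within each system as a difference of differences. In naivex2 edgeR called 0 of the 7 members (1.54% of all genes called), with 2 at an unadjusted p under 0.05 and 1 called by DESeq2. In totalx2 edgeR called 0 of 7 as well (27.3% of all genes called), with 3 at an unadjusted p under 0.05 and 1 called by DESeq2. With line as a replicate block 2 were called in totalx2: Gdf3, whose GFP effect was larger at day 12 by 0.89 on the log2 scale (adjusted p = 0.0172), and Lefty2, larger by 0.82 (0.0303). Without the block these were 0.87 ± 0.34 (adjusted p = 0.0616) and 0.85 ± 0.38 (0.105). Gdf3 was also called without day 10 GFP- replicate 3 (1.08, adjusted p = 0.0163), Tdgf1 without the same library (0.76, 0.0349) and Lefty2 without day 12 GFP- replicate 2 (1.13, 0.0399). The fibroblast sums changed in the same contrast, overlapping at day 10 and lower in GFP+ cells at day 12 as given above, and their part was not tested.

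TET1 KO clones were set against wild-type clones to ask how loss of this DNA demethylase bears on the pathway in established iPSC. Tet1 itself, the check of the labels, was at 54.3, 58.5 and 57.2 CPM in the KO clones and at 1300, 822 and 873 CPM in the wild-type clones (log2 fold change -4.14 ± 0.18, adjusted p = 2.5e-11). Reads over the whole gene count toward it, parts outside the disrupted region included. Of the 7 members 1 was called, Lefty1, where 10.7% of all genes were called and 4.78% were higher.
Lefty1 was at 12.97, 13.4 and 14.9 CPM in the KO clones and at 3.20, 10.0 and 7.35 CPM in the wild-type clones, so that every KO clone lay above every wild-type clone. The log2 fold change was 0.96 ± 0.26 (adjusted p = 0.022), and 0.68 (0.031) without wild-type replicate 1. The call was lost without KO replicate 1, 2 or 3 (adjusted p = 0.0505, 0.0557 and 0.0775) and when only the 2 iPSC groups were fitted (0.197). Lefty2 was not called, at 10.4, 6.63 and 8.42 against 16.1, 9.92 and 9.23 CPM (-0.45 ± 0.27, adjusted p = 0.308), and there were 0.494 to 0.805 Lefty2 counts per Lefty1 count in KO and 0.992 to 5.04 in wild-type clones.
The ligand genes were not called. Nodal was at 67.3 ± 3.64 in KO and 56.2 ± 14.6 CPM in wild-type clones (log2 fold change 0.25 ± 0.17, adjusted p = 0.356), and Gdf3 at 104 ± 4.68 and 82.7 ± 19.9 CPM (0.32 ± 0.22, 0.36), its lowest KO clone (99.1 CPM) just above its highest wild-type clone (99.0 CPM). Tdgf1 was at 506, 512 and 504 CPM in the KO clones, each below every wild-type clone, and was not called either (-0.48 ± 0.19, adjusted p = 0.117, or -0.26 and 0.469 without wild-type replicate 1). Acvr2b (0.41 ± 0.30, adjusted p = 0.406) and Foxh1 (0.12 ± 0.16, 0.678) had overlapping ranges. The KO clones differed from each other less than the wild-type clones did for each of these genes. Wild-type replicate 1, the library with the highest mitochondrial share, was the lowest or highest wild-type clone each time. Wild-type replicates 2 and 3 held 63.7 and 65.5 CPM of Nodal, 608 and 608 CPM of Tdgf1, and 27.01 and 25.1 CPM of Acvr2b. They lay further apart for Gdf3 (99.0 and 88.6 CPM) and Foxh1 (38.3 and 29.0 CPM). Of the epiblast list (Fgf5, Otx2, Pou3f1, Dnmt3b, Etv4 and Zic2) 3 of the 5 tested genes were called higher in KO clones, and the list summed to 797 to 831 CPM against 563 to 665 CPM. Its part in the Lefty1 result was not tested.

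Of 39 other genes of Nodal and activin signalling in the tables (other ligands, receptors, convertases, SMADs and partners, inhibitors, mesendoderm targets) 28 were tested. From MEF to day 10, 5 were called higher and 20 lower, beside 6261 and 6058 of all 16132 genes, with a median log2 fold change of -1.14 against 0.06 over all genes tested. Furin, a convertase that can cleave the Nodal precursor, fell from 315 ± 1.29 to 33.4 ± 4.88 CPM (-3.23 ± 0.10, adjusted p = 5.5e-17). Pmepa1, a feedback inhibitor that sequesters SMADs, fell from 275 ± 5.09 to 23.3 ± 1.88 CPM (-3.56 ± 0.15, adjusted p = 1.2e-14).
Between the naivex2 gates 3 of the 28 were called higher and 2 lower at day 12, beside 9.93% and 6.69% of all genes, and 5 higher and 4 lower at day 14, beside 14.4% and 16.9%. These counts lie near the shares over all genes. In totalx2 there were 4 higher and 5 lower of 28 at day 10, beside 1975 and 1423 of all 15197 genes, and 7 higher and 13 lower at day 12, beside 4742 and 4615. Pcsk6, the second convertase of the Nodal precursor, was among the named genes of 3 of these 4 comparisons and higher in GFP+ cells in each. It was at 27.4 ± 6.36 in GFP- and 58.9 ± 0.911 CPM in GFP+ naivex2 cells at day 12 (1.10 ± 0.13, adjusted p = 6.4e-06). In totalx2 it was at 4.23 ± 1.56 and 15.8 ± 0.820 CPM at day 10 (1.90 ± 0.23, adjusted p = 5.8e-06) and at 3.38 ± 0.956 and 43.4 ± 4.45 CPM at day 12 (3.75 ± 0.24, adjusted p = 1.8e-10). Its GFP effect grew from day 10 to day 12 (1.85 ± 0.33, adjusted p = 0.000693). The convertases did not move as a set: of the 3 tested, 1 was called higher and 2 lower in totalx2 day 12 GFP+ cells. Furin was lower in naivex2 day 14 GFP+ cells (30.5 ± 1.57 against 44.4 ± 3.55 CPM, -0.54 ± 0.10, adjusted p = 0.000192). In totalx2 the GFP effect of Furin fell from day 10 to day 12 (-0.99 ± 0.23, adjusted p = 0.00397).
Of the 7 SMADs and nuclear partners tested in totalx2, 1 was called higher and 2 lower in GFP+ cells at day 10, and 3 higher and 1 lower at day 12. Of the 10 other inhibitors tested, 1 was higher and 2 lower at day 10, and 2 higher and 6 lower at day 12. Smad3, a receptor-activated SMAD, was lower in totalx2 GFP+ cells at day 10 (-0.60 ± 0.10, adjusted p = 0.000147) and day 12 (-1.35 ± 0.10, 1.5e-09). Smad7, an inhibitory SMAD that the pathway is known to induce, was higher at day 10, at 67.3 ± 13.2 against 15.8 ± 2.38 CPM (2.09 ± 0.21, adjusted p = 4.4e-07). In naivex2 Smad7 rose with time in both gates, from day 10 to 14 in GFP- cells (1.37 ± 0.14, adjusted p = 2.6e-07) and from day 12 to 14 in GFP+ cells (1.30 ± 0.14, 7.7e-07).
Among ligands, Inhbb, which encodes the beta B chain of activins, was higher in naivex2 day 14 GFP+ cells (20.8 ± 3.12 against 8.87 ± 1.49 CPM, log2 fold change 1.22 ± 0.21, adjusted p = 0.000149) and lower in TET1 KO clones (33.0 ± 6.12 against 72.5 ± 19.2 CPM, -1.14 ± 0.22, 0.00204). Inha, whose product opposes activin, was higher in the KO clones at 3.72 ± 0.759 against 1.04 ± 0.360 CPM (1.78 ± 0.34, adjusted p = 0.00228). These were the 2 of the 28 called there.

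The genes whose log2 levels ran most like each member over the 21 libraries of both tables were found among 10075 candidates, by the lower of the 2 Pearson correlations. They were Slc37a1 and Utf1 for Nodal (lower r 0.977 and 0.958), Cnpy1 and Actl6a for Gdf3 (0.971 and 0.970) and Platr10 and Fam169a for Tdgf1 (0.982 and 0.980). Gga2 and Fam98c were nearest to Acvr2b (0.949 and 0.925) and B4galnt3 and Cbx7 to Foxh1 (0.978 and 0.977). For Lefty1 the closest genes, Rps6kl1 and Smagp, reached only 0.852 and 0.822, and for Lefty2 Zfp296 and Cyp2b23 reached 0.885 and 0.877. The libraries share groups and lines, and the MEF libraries of batch 1 lie far from the others, so these are descriptions. By Spearman's rho none of these pairs of nearest genes was the same.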

How the data were processed

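The deposited tables give raw counts for 42 libraries in 2 tables of 48321 gene names each, which the authors produced, per the file headers, in featureCounts 1.5.3 with strand setting 2 (reverse) and the whole gene span as the feature. The annotation was GENCODE vM10 in the first table and a GENCODE annotation of GRCm38.p5 in the second, per the file headers. Alignment was by HISAT2 2.1.0 to mm10, and DESeq2 1.18.1 was used, per the submitters' processing notes. A stranded kit was used on poly(A) RNA, per the labels' protocols. A column without a sample did not occur (0 columns).

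Genes of each table passed filterByExpr, TMM gave scaling factors of 0.7818 to 1.07, and each table was fitted with all 7 groups in edgeR 4.0.16 (quasi-likelihood F test, robust) under R 4.3.3. P values were adjusted by Benjamini-Hochberg over all genes tested and called at 0.05. Standard errors are the log2 fold change divided by the root of F. CPM rests on totals times the TMM factor, and a prior count of 2 was added for log2 levels. The 14 comparisons stay within a table, and those that share a group are not independent. Replicates are lines or clones, but the spread behind each p value was estimated over all 7 groups of a table, those outside the contrast included. The main fit had no term for line. For KO against wild-type clones 1619 of 15197 genes were called in this fit, and 448 of 13888 with the compared groups fitted alone. Lefty1 and Lefty2 were aligned with Biopython 1.88, and figures drawn with matplotlib 3.10.9. The edgeR test was checked on simulated counts that held no line effect, so the check does not cover libraries paired by line.

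The members and lists were chosen with earlier results of these data known. Named genes are all 7 members in each comparison, up to 3 called pathway genes with the smallest p per comparison, the 2 genes most like each member (at least 10 CPM in the highest group of each table, predicted names left out), and Tet1. The text describes some of the pathway genes so chosen. Replicate numbers are lines in naivex2 and totalx2, which pairs those libraries. Deviations of same-line libraries from the group mean correlated at 0.126 to 0.593 in totalx2 (30 of 30 pairs over 0.1) and -0.121 to 0.359 in naivex2 (32 of 63). Clone numbers of the iPSC of batch 2 pair nothing (-0.0909 to 0.0163, 0 of 3 over 0.1). Other settings tried were DESeq2 1.42.0 in place of edgeR, RLE in place of TMM, totals with no scaling factor, no filter or one of 1 CPM in 3 libraries, a fit of the compared groups alone, a replicate block, and fits without each library in turn or without both libraries over 8% mitochondrial.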

Additional observations from a re-analysis of the deposited data

Results flagged for a closer look

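At day 12 some genes differed between GFP+ and GFP- cells in opposite directions in the 2 systems, every naivex2 line one way and every totalx2 line the other. The difference between the systems was not tested, because they were sequenced in separate batches. The gates are not matched either: day 12 sets stage IV against stage III in naivex2 and stage III against stage I in totalx2. The pluripotent list summed to 2584 to 2732 CPM in naivex2 day 12 GFP- cells and to 771 to 959 CPM in those of totalx2. The mean log2 difference (GFP+ minus GFP-) over 3 lines was -1.47 in naivex2 and 1.17 in totalx2 for Lefty1, and -0.63 and 3.18 for Lefty2. It was -0.0577 and 3.06 for Tdgf1, -0.10 and 0.80 for Acvr2b, and -0.0819 and 1.65 for Foxh1, where the naivex2 values are small. Of the naivex2 differences, that of Lefty1 alone was called by edgeR.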

How the results depend on the processing

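Over 98 pairs of a member and a comparison, 1379 values under alternatives were compared with the values reported: 1310 stayed on the same side of the threshold, 44 lost the call, 25 gained it and 0 reversed, and 72 pairs never changed. The members called in naivex2 GFP- cells from day 10 to 14 went from 2 to 1 with unscaled totals or with no low-count filter, and were 1 to 2 with single libraries left out. For the naivex2 difference of GFP effects they went from 0 to 2 with the compared groups fitted alone and to 1 with DESeq2. For that of totalx2 they went from 0 to 1 with RLE size factors or DESeq2, to 2 with the replicate block or with the compared groups fitted alone, and were 0 to 2 with single libraries left out. They were 1 to 2 with single libraries left out in totalx2 GFP+ cells from day 10 to 12, went from 4 to 2 with the compared groups fitted alone in wild-type iPSC against day 12 GFP+ cells, and from 1 to 0 in KO against wild-type iPSC, where leaving out single clones also gave 0 to 1. The cause was not tested. The replicate block changed no call of a member other than the 3 given above. It could not be fitted for wild-type iPSC against totalx2 cells, which share no line. Depth after the MEF stage is lowest for the Lefty pair, with as few as 22 Lefty2 counts in a totalx2 day 8 library and 24 Lefty1 counts in a wild-type iPSC library. With 3 libraries per group, a difference that was not called is not shown to be absent.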
